A study of Mus musculus with 12 samples.

Results

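The insulin-like growth factor binding proteins (IGF-binding proteins) are represented here by 6 genes, Igfbp2, Igfbp3, Igfbp4, Igfbp5, Igfbp6 and Igfbp7, out of 52636 genes in the count tables. They were taken by name, as the members of the family that were listed for the analysis, and were found by matching each gene's Ensembl identifier to its mouse symbol. All 6 passed the filter on low counts, which 17970 genes passed in all. The data are bulk RNA-seq libraries of 12 mouse mammary tumors of the 2153L line, a transplantable triple-negative breast cancer from a genetically engineered mouse, transplanted into mammary fat pads of Balbc females. Tumors carried either an empty vector (EV) or P53ERTAM, a p53 that tamoxifen switches on. Each kind was treated for 8 days with vehicle or with 2 drugs together (combo): ORIN1001, which inhibits the IRE1α RNase, at 150 mg/kg daily, and docetaxel, a taxane that blocks microtubules, at 20 mg/kg weekly, with 3 libraries in each of the 4 groups. Who received tamoxifen, EV tumors included, is not stated in the labels, nor are mouse ages or a batch, nor whether the 3 libraries of a group came from separate mice, so the p-values measure the spread between these libraries. Whole tumor RNA was sequenced, so tumor cells and host cells are mixed, and fewer cells of a type and less RNA per cell cannot be told apart.

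The IGF-binding proteins are secreted proteins that hold the growth factors IGF1 and IGF2 in the extracellular space, prolong their life in blood and tissue, and keep them from, or deliver them to, the receptor IGF1R. Igfbp3 and Igfbp5 are the forms that join the large circulating complex with the acid-labile subunit, Igfbp2, Igfbp4 and Igfbp6 form smaller complexes, Igfbp6 prefers IGF2, and Igfbp7 binds IGFs weakly and is a matrix protein made in quantity by blood vessel endothelium. In mammary gland, Igfbp5 is known for its rise at involution, and Igfbp3 and Igfbp7 are known as genes that p53 or growth arrest can raise.

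The family is defined by a cysteine-rich amino-terminal domain. In the translated GENCODE M21 transcripts, the run cysteine, glycine, cysteine, cysteine, any pair of residues, cysteine was found in 5 of the 6 genes, at residues 68 to 74 of 305 in Igfbp2, 69 to 75 of 292 in Igfbp3, 53 to 59 of 254 in Igfbp4, 52 to 58 of 271 in Igfbp5 and 57 to 63 of 313 in Igfbp7. It was not found in the 238 residues of Igfbp6. The coding bases of that run are shown to make visible what these genes share and how far their sequences have diverged, with the cysteine codons in capitals.
Igfbp2: TGCggcTGCTGCtccgtgTGC
Igfbp3: TGCggcTGCTGCctgactTGC
Igfbp4: TGCggtTGTTGCgccactTGC
Igfbp5: TGTggcTGCTGCatgactTGC
Igfbp7: TGCgggTGCTGCccggtgTGT
Igfbp3 and Igfbp5 differed at 2 of these 21 bases, Igfbp2 and Igfbp7 at 4, and Igfbp5 and Igfbp7 at 8. Cysteines made up between 6.07% (Igfbp7) and 7.87% (Igfbp4) of the residues of the 6 proteins.

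In GRCm38, Igfbp2 (chr1:72824503-72852474, plus strand) and Igfbp5 (chr1:72857932-72874884, minus strand) are neighbours whose 3′ ends face each other across 5457 bases. Igfbp3 lies at chr11:7206086-7213923 on the minus strand, 3539 bases from Igfbp1, and Igfbp4 at chr11:99041244-99054392 on the plus strand. Igfbp6 lies at chr15:102144362-102149511 on the plus strand and Igfbp7 at chr5:77349240-77408041 on the minus strand. Of the 1209 exonic bases of Igfbp7, 85 are shared with Polr2b, an RNA polymerase II subunit on the other strand; the strand setting of the counting is not given in the sources used here, so reads of the 2 genes may not be told apart there. For P53ERTAM against EV tumors under vehicle, Polr2b was lower (log2 fold change -0.89) where Igfbp7 was higher, and for combo against vehicle in P53ERTAM tumors its value was 0.57 (edgeR adjusted p = 0.0559), beside 0.59 for Igfbp7. The exons of the other 5 genes overlap no annotated gene.

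The bases just upstream of 3 of these genes are shown because Igfbp2 and Igfbp7 were higher, and the neighbour Igfbp5 lower, in P53ERTAM tumors. They are RefSeq promoter windows of GRCm38.p6, 5′ to 3′ on the gene's strand, for Igfbp2 (chr1:72824360-72824479, plus), Igfbp5 (chr1:72874885-72875004, minus) and Igfbp7 (chr5:77408046-77408165, minus). The 19 bases nearest the start of Igfbp5 are left out because GENCODE places them in an exon. Capitals mark the GC box GGGCGG or its reverse complement, the TATA box TATAAA and the CCAAT box CCAAT on either strand.
Igfbp2: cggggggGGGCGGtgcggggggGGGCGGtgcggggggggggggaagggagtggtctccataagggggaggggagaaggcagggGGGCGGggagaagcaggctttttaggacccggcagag
Igfbp5: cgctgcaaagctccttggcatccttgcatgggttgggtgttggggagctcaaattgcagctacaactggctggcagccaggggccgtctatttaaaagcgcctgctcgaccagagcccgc
Igfbp7: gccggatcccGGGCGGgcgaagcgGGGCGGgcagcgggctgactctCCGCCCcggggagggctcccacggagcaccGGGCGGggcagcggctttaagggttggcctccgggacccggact
Over the full 250 bases before the start shown, Igfbp2 held 3 GC boxes, Igfbp7 held 4 and Igfbp5 held none. Of 27025 RefSeq promoter windows of that length, 32.9% held at least 1. The windows of Igfbp3 and Igfbp4, which were also higher in P53ERTAM tumors, held no GC box, and neither did that of Igfbp6. RefSeq also has a second window for Igfbp2, before another start within the gene, which held no GC box and 1 AP-1 site (TGANTCA, in 6.87% of windows) 39 bases before that start. Igfbp4 held a TATA box 28 bases before its start, and Igfbp6 held 1 on the other strand, 148 bases before its start. Of all windows, 12.97% held this box anywhere on either strand. Igfbp6 also held 2 CCAAT boxes, which 34.46% of windows held at least once. The letters of the p53 half-site were matched in none of the members' windows and in 7.18% of all windows. These matches describe the letters only.

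Libraries held 13484873 to 24424964 counts, and 21847 to 23910 genes had a count. The 3 EV combo libraries stood apart: the RNA Gm26917 took 10.7% to 11.1% of their counts and 0.133% to 1.10% of those of the other 9, and protein-coding genes took 80.9% to 81.6% against 86.6% to 95.8%. Comparisons that use them were also fitted with protein-coding genes alone, which moved the median of all genes by 0.13 on the log2 scale in the comparison of combo with vehicle in EV tumors, by -0.11 in that of P53ERTAM with EV tumors under combo and by -0.18 in the interaction. Epithelial markers were present as the tumor label states: the summed level of 10 of them was 2450 to 6692 TPM (transcripts scaled to exon length and library) in every library. The p53 target Cdkn1a, an inhibitor of the cell cycle, was higher in P53ERTAM tumors by a log2 fold change of 1.90 under vehicle and 2.42 under combo. It was taken from a list of 10 p53 response genes. Under vehicle 4 of the 10 were called higher and none lower (median log2 0.35), where 37.8% of all genes were called (17.9% higher). Under combo 9 were higher and none lower (median log2 1.32), where 44.1% of all genes were called (22.1% higher).

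Levels between genes are compared in TPM, which divides by exon length, and one gene between libraries in CPM (counts per megacount of library). Sums over genes, ratios, Igf1 and Igf2 are given in TPM between libraries too, where changes can differ from those in CPM. From EV vehicle to EV combo, Igfbp4 had group means of 129 and 126 CPM but of 91.7 and 101 TPM. Calls are from edgeR's quasi-likelihood test in 1 fit of all 12 libraries, with p-values adjusted over all genes tested (Benjamini-Hochberg) and a threshold of 0.05. Summed over the 6 genes, the level was 310 to 419 TPM in EV vehicle libraries and 629 to 681 TPM with combo. In P53ERTAM libraries it was 657 to 884 TPM with vehicle and 816 to 1066 TPM with combo. The EV vehicle libraries lay below all others, and the ranges of EV combo and P53ERTAM vehicle, and of P53ERTAM vehicle and P53ERTAM combo, overlapped. The members that led these sums differed between EV and P53ERTAM libraries.

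**Figure D1:**
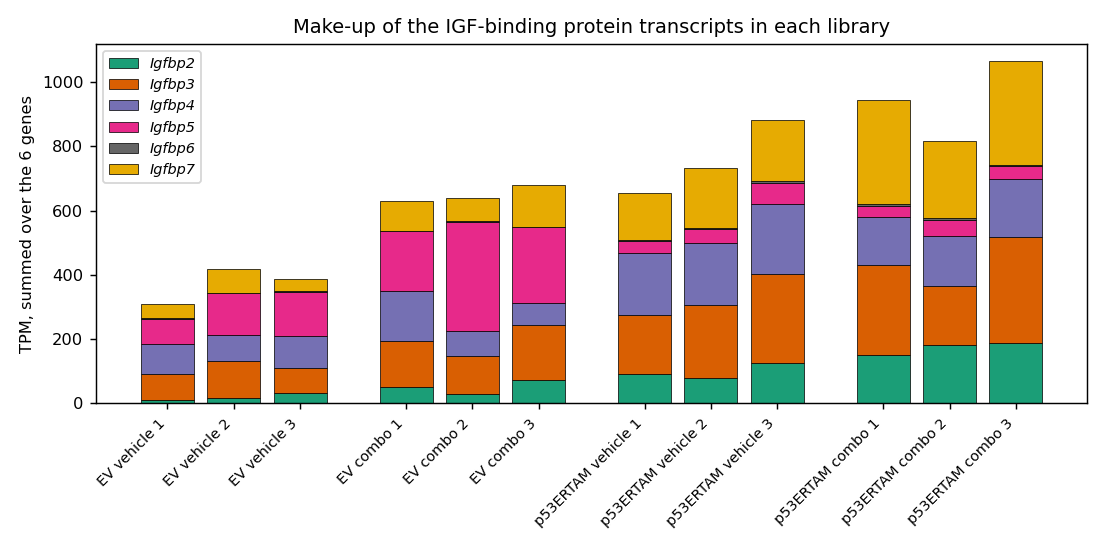
TPM of the 6 IGF-binding protein genes stacked for each of the 12 libraries (y axis, TPM summed over the genes; x axis, group and replicate number). Igfbp5 averaged 39.2% of the sum in EV combo libraries and 4.49% in P53ERTAM combo libraries, and Igfbp6 was at most 1.15% in any library.

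Igfbp5 made up a mean of 30.6% of the summed TPM in EV vehicle and 39.2% in EV combo libraries, and 6.50% and 4.49% in P53ERTAM vehicle and combo libraries. Igfbp7 went the other way, from 13.9% and 14.9% to 23.2% and 31.4%, and Igfbp2 from 5.24% and 7.85% to 13.1% and 18.6%. Igfbp3 held 22.1% to 29.9% in all 4 groups. Igfbp4 held 25.1% and 26.8% under vehicle and 15.6% and 17.4% under combo. The most abundant member per length was Igfbp5 in 5 of the 6 EV libraries, with Igfbp4 first in EV vehicle replicate 1, while in P53ERTAM libraries it was Igfbp4 in 1, Igfbp3 in 3 and Igfbp7 in 2.

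The first question is how tumors with P53ERTAM differed from EV tumors under vehicle. Igfbp2, Igfbp3, Igfbp4 and Igfbp7 were higher and Igfbp5 was lower, so 5 of the 6 members were called, where 37.8% of all genes tested were (17.9% higher and 19.8% lower). The same 5 were those whose groups did not overlap in CPM, against 45.7% of all genes. The members' median log2 fold change was 1.28, against 0.0062 over all genes.

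Igfbp2, which binds IGFs and carries a site for integrins, was measured at 6.36, 10.4 and 18.4 CPM in EV vehicle and at 52.3, 55.3 and 73.4 CPM in P53ERTAM vehicle libraries. Every P53ERTAM library was above every EV library. The fold was 5.16 (log2 2.37, SE 0.37, edgeR adjusted p = 0.000588), the largest among the members in this comparison.

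Igfbp7, the matrix and vessel-associated member, was measured at 14.6, 17.1 and 28.5 CPM in EV vehicle and at 54.9, 72.5 and 84.6 CPM in P53ERTAM vehicle libraries. The groups did not overlap, and the fold was 3.51 (log2 1.81, SE 0.28, edgeR adjusted p = 0.000471). Vessel markers moved with it: 8 of 10 endothelial markers were called higher and none lower, their summed level was 35.4 to 65.7 TPM in EV vehicle and 119 to 172 TPM in P53ERTAM vehicle libraries, and no marker was at 0. Their part in the result was not tested.

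Igfbp3, the main carrier of IGFs in blood, was measured at 79.5, 81.2 and 112 CPM in EV vehicle and at 173, 268 and 268 CPM in P53ERTAM vehicle libraries. The groups did not overlap, with 1 P53ERTAM library well below the other two. The fold was 2.60 (log2 1.38, SE 0.24, edgeR adjusted p = 0.000959).

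Igfbp4, a member whose release of IGF is set by the protease pappalysin, was measured at 115, 133 and 140 CPM in EV vehicle and at 261, 303 and 317 CPM in P53ERTAM vehicle libraries. These 2 groups did not overlap. The fold was 2.27 (log2 1.18, SE 0.25, edgeR adjusted p = 0.00335). Fibroblast markers were also higher (7 of 10 called, none lower), at 245 to 251 TPM in sum in EV vehicle and 693 to 1406 TPM in P53ERTAM vehicle libraries, and so were 6 of 10 pericyte and smooth muscle markers, at 161 to 213 TPM against 294 to 359 TPM. No fibroblast or pericyte marker was at 0 in a group, and the part of these cells in the levels of Igfbp3 and Igfbp4 was not tested.

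Igfbp5, the member that binds strongly to matrix, was measured at 151, 246 and 266 CPM in EV vehicle and at 70.8, 101 and 125 CPM in P53ERTAM vehicle libraries. The groups did not overlap, and it was the member that was lower: 2.24-fold (log2 -1.16, SE 0.27, edgeR adjusted p = 0.00575). Its level per summed fibroblast marker level, a ratio chosen after its values were seen, was 0.318 to 0.554 in EV vehicle and 0.0318 to 0.0928 in P53ERTAM vehicle libraries. Markers of epithelium were lower in the same comparison: 5 of 8 basal markers were lower and 1 higher, with overlapping sums of 984 to 1397 TPM in EV vehicle and 730 to 1121 TPM in P53ERTAM vehicle libraries, and 8 of 10 epithelial markers were lower and none higher, with sums of 5398 to 6692 TPM and 2450 to 3632 TPM. No marker was at 0, and their part in the level of Igfbp5 was not tested. Igfbp5 and its neighbour Igfbp2 stood in a TPM ratio of 4.44 to 7.30 in EV vehicle and of 0.416 to 0.562 in P53ERTAM vehicle libraries.

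Igfbp6, the IGF2-preferring member, had 6 to 40 counts per library, and its EV vehicle libraries (0.263, 0.833 and 1.28 CPM) overlapped those of P53ERTAM vehicle (0.892, 1.32 and 1.52 CPM). Its log2 fold change was 0.65, with a 95% interval from -0.52 to 1.82 and edgeR adjusted p = 0.371.

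The 5 calls held in each of the 12 refits that left out 1 library, where the adjusted p of Igfbp5 reached 0.0287 and those of the other 4 members at most 0.0178. They also held in the fit without the EV combo libraries, with log2 fold changes of 2.38 (Igfbp2), 1.39 (Igfbp3), 1.197 (Igfbp4), -1.15 (Igfbp5) and 1.82 (Igfbp7). Tested against a fold of 1.5 in place of no change, Igfbp5 had an adjusted p of 0.0594.

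**Figure D2:**
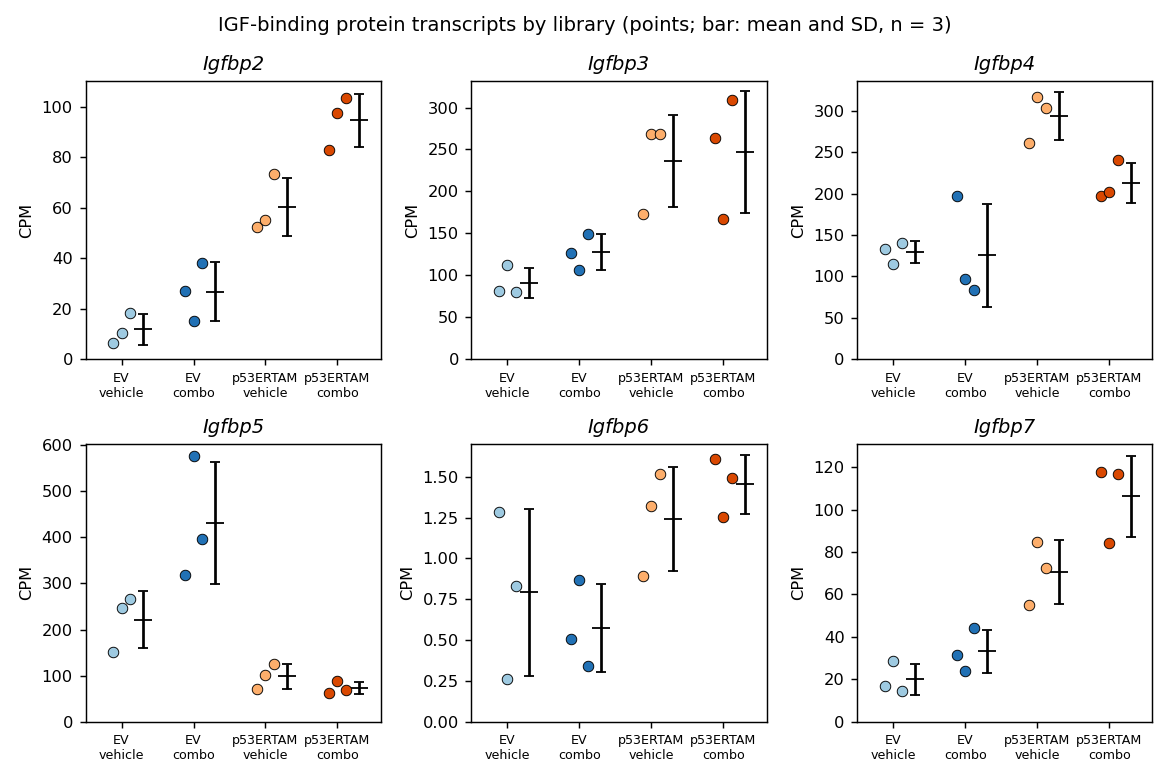
CPM of each member in each library (points) with the mean and SD of the 3 libraries of a group (bar), on linear y axes that start at 0 and differ between panels. The group means of Igfbp2 and Igfbp7 are lowest in EV vehicle and highest in P53ERTAM combo, though some libraries of different groups overlap. Igfbp5 is highest in EV combo libraries.

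The same comparison under combo asks whether the differences between P53ERTAM and EV tumors were there in treated tumors. Again 5 of 6 members were called, Igfbp2, Igfbp3, Igfbp4 and Igfbp7 higher and Igfbp5 lower, where 44.1% of all genes were called (22.1% higher and 22.0% lower). The members' median log2 fold change was 1.15, against 0.062 over all genes. In CPM, 5 members had groups that did not overlap, against 61.7% of all genes, with Igfbp6 in place of Igfbp4.

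Igfbp5 showed the largest difference of any member in any comparison. It was measured at 319, 396 and 577 CPM in EV combo and at 61.4, 69.7 and 88.6 CPM in P53ERTAM combo libraries, so that the lowest EV library was far above the highest P53ERTAM library. The difference was 5.88-fold (log2 -2.56, SE 0.28, edgeR adjusted p = 3.72e-05), and it was -2.67 with protein-coding genes alone. Basal markers of the mammary epithelium moved the same way: 5 of 8 were lower, among them the keratin Krt14 (log2 -4.00), and 1 was higher. Their summed level was 1316 to 1872 TPM in EV combo and 887 to 907 TPM in P53ERTAM combo libraries, no marker was at 0 in a group, and their part in the level of Igfbp5 was not tested.

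Igfbp2 was measured at 15.03, 27.0 and 38.2 CPM in EV combo and at 82.8, 97.7 and 103 CPM in P53ERTAM combo libraries. The groups did not overlap, and the fold was 3.53 (log2 1.82, SE 0.36, edgeR adjusted p = 0.00168). Igfbp7 was measured at 24.1, 31.4 and 44.0 CPM against 84.3, 117 and 118 CPM. These groups did not overlap either, and the fold was 3.20 (log2 1.68, SE 0.27, edgeR adjusted p = 0.000459), beside 6 of 10 endothelial markers that were higher and none lower, with overlapping sums of 82.3 to 151 TPM and 137 to 205 TPM.

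Igfbp3 was measured at 106, 126 and 149 CPM in EV combo and at 167, 263 and 309 CPM in P53ERTAM combo libraries. The groups were apart by a narrow margin, and the fold was 1.94 (log2 0.95, SE 0.24, edgeR adjusted p = 0.00628). Igfbp4 was measured at 83.2, 96.6 and 197 CPM against 197, 202 and 240 CPM. EV combo replicate 1 lay level with the lowest P53ERTAM library, and the fold was 1.70 (log2 0.76, SE 0.25, edgeR adjusted p = 0.0267). The call for Igfbp4 was lost without EV combo replicate 2 (adjusted p = 0.101), EV combo replicate 3 (0.0876) or P53ERTAM combo replicate 3 (0.0894), and in a fit of the 2 groups alone (0.0803). Without EV combo replicate 1, the highest EV library, the log2 fold change was 1.25 (adjusted p = 7.92e-05). Fibroblast markers were higher in 2 of 10 and lower in none, where 22.1% of all genes were higher. Their sums overlapped, at 540 to 997 TPM in EV combo and 692 to 1010 TPM in P53ERTAM combo libraries. Of 10 pericyte and smooth muscle markers, 3 were higher and 1 lower, with overlapping sums of 257 to 410 TPM and 356 to 434 TPM. The part of these cells in the levels of Igfbp3 and Igfbp4 was not tested.

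Igfbp6 was measured at 0.342, 0.508 and 0.867 CPM in EV combo and at 1.26, 1.49 and 1.61 CPM in P53ERTAM combo libraries. The groups did not overlap, but its log2 fold change of 1.35 (SE 0.56) did not pass the test (edgeR adjusted p = 0.0645), while limma-voom gave 0.0264. The calls of Igfbp2, Igfbp3, Igfbp5 and Igfbp7 held in all 12 refits without 1 library. With protein-coding genes alone the log2 fold changes were 1.71 (Igfbp2), 0.84 (Igfbp3), 0.66 (Igfbp4, adjusted p = 0.0440), 1.25 (Igfbp6) and 1.57 (Igfbp7), and the same 5 members were called. These results share their EV combo libraries with the treatment comparison in EV tumors, and so the 2 are not independent.

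**Figure D3:**
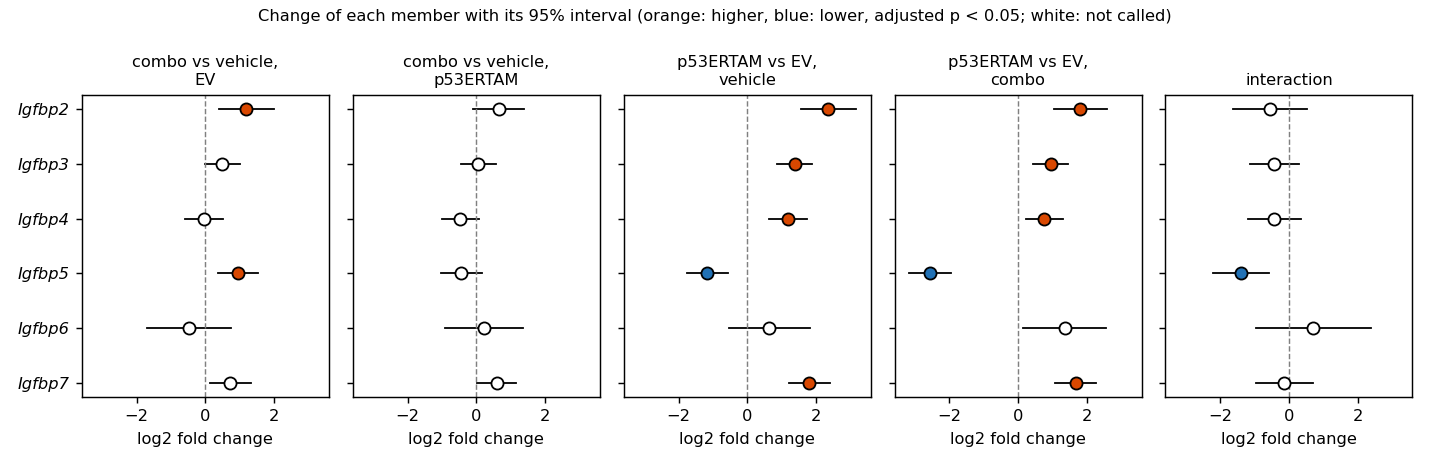
Log2 fold change of each member (x axis) with its 95% interval in the 5 comparisons from edgeR, orange for higher, blue for lower and white for not called at an adjusted p of 0.05. The panel of P53ERTAM against EV under vehicle holds 4 orange points and the blue point of Igfbp5 at -1.16.

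The treatment comparison, combo against vehicle, was made within each vector. In EV tumors 2 of the 6 members were called, Igfbp2 and Igfbp5, both higher, where 39.9% of all genes were called (18.8% higher and 21.1% lower); the members' median log2 fold change was 0.61, against -0.067 over all genes. Only the groups of Igfbp5 did not overlap in CPM, against 50.5% of all genes.

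Igfbp5 rose from 151, 246 and 266 CPM in EV vehicle to 319, 396 and 577 CPM in EV combo libraries. All treated libraries were above all vehicle libraries, and the fold was 1.95 (log2 0.96, SE 0.27, edgeR adjusted p = 0.0137; log2 1.09 with protein-coding genes alone). Without EV combo replicate 2, the highest library, the log2 fold change was 0.69 and the adjusted p 0.0633. In the same comparison 1 of 8 basal markers was lower and 0 were higher. Their sums overlapped, at 1316 to 1872 TPM under combo and 984 to 1397 TPM under vehicle. Of 10 epithelial markers, 6 were lower and 0 higher, where 21.1% of all genes were lower. The part of these markers' cells in the level of Igfbp5 was not tested.

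Igfbp2 rose 2.29-fold, with a log2 fold change of 1.197 (SE 0.36, edgeR adjusted p = 0.0208). The lowest treated library, 15.03 CPM, was below the highest vehicle library, 18.4 CPM, so the groups overlapped. Leaving out EV vehicle replicate 1 ended this call (adjusted p = 0.0536), as did leaving out its replicate 2 (0.0577) or replicate 3 of EV combo (0.0971), and a fit of the 2 groups alone (0.0578); both calls were lost with no filter on low counts (0.0960 for Igfbp2 and 0.0715 for Igfbp5).

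Igfbp7 had a log2 fold change of 0.73 with an edgeR adjusted p of 0.0511. It was called by DESeq2 (adjusted p = 0.0153), with its size factors in edgeR (0.0392) and with protein-coding genes alone (log2 0.86, adjusted p = 0.0296). Without EV vehicle replicate 2, the highest vehicle library, it was called at a log2 fold change of 1.10 (adjusted p = 0.00677), and without EV combo replicate 2, the lowest treated library, at 0.91 (0.0277). Without EV combo replicate 3, the highest treated library, the value was 0.47 (adjusted p = 0.218), and it was called in 4 of the 12 refits without 1 library. Endothelial markers were called higher in 6 of 10 and lower in none, and summed to 82.3 to 151 TPM under combo against 35.4 to 65.7 TPM.

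The other 3 members were not called in EV tumors. Igfbp3 had a log2 fold change of 0.49 (95% interval -0.023 to 0.997), Igfbp4 of -0.04 (-0.58 to 0.50) and Igfbp6 of -0.48 (-1.71 to 0.76). With protein-coding genes alone these values were 0.62, 0.085 and -0.35, none of them called, and that of Igfbp2 was 1.33 and was called. The value for Igfbp4 rested on its spread in treated tumors: without EV combo replicate 1, at 197 CPM, it was -0.52 with an adjusted p of 0.0142, and without EV combo replicate 3 it was 0.18. Fibroblast markers were higher in 7 of 10 and lower in none, at 540 to 997 TPM against 245 to 251 TPM, and pericyte markers in 5 of 10; their part in the levels of the members was not tested.

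In P53ERTAM tumors edgeR called none of the 6 members between combo and vehicle, where 6.28% of all genes were called (3.30% higher and 2.98% lower). At an unadjusted p of 0.05 it held 1, Igfbp7; DESeq2 called 0, and limma-voom called 2, Igfbp2 (log2 0.70, adjusted p = 0.0351) and Igfbp7 (log2 0.80, adjusted p = 0.0164). A fit of these 2 groups alone also called 2, Igfbp2 (0.64, adjusted p = 0.0207) and Igfbp4 (-0.47, adjusted p = 0.0298). The members' median was 0.14, against 0.0050 over all genes.

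Igfbp2 was at 52.3, 55.3 and 73.4 CPM under vehicle and at 82.8, 97.7 and 103 CPM under combo, and the groups did not overlap (log2 0.65, 95% interval -0.10 to 1.40, edgeR adjusted p = 0.270). Igfbp4 was at 261, 303 and 317 CPM under vehicle and at 197, 202 and 240 CPM under combo, also without overlap (log2 -0.46, 95% interval -1.003 to 0.075, edgeR adjusted p = 0.274). These were the members without overlap in CPM, against 33.0% of all genes. The values of Igfbp7 were 0.59 (95% interval 0.016 to 1.17), of Igfbp3 0.06 (-0.45 to 0.56), of Igfbp5 -0.43 (-1.02 to 0.15) and of Igfbp6 0.23 (-0.90 to 1.36).

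The interaction tests whether the response to combo differed between P53ERTAM and EV tumors, and 1 of the 6 members, Igfbp5, was called, where 36.0% of all genes were called (18.8% higher and 17.2% lower). Its response in P53ERTAM tumors was lower, with a log2 difference of -1.39 (SE 0.38, edgeR adjusted p = 0.0142; -1.57 with protein-coding genes alone). The 3 EV combo libraries were the highest of the 12 for this gene and the P53ERTAM combo libraries were all below 100 CPM. The call held in all 12 refits without 1 library, with values from -1.60 to -1.12 and an adjusted p of at most 0.0396, and was lost with no filter on low counts (adjusted p = 0.0746). The members' median interaction was -0.43, against 0.13 over all genes.

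For the other 5 members the difference in response was not called, and its 95% interval was wide. It was -1.63 to 0.53 for Igfbp2, -1.14 to 0.29 for Igfbp3, -1.19 to 0.34 for Igfbp4, -0.97 to 2.38 for Igfbp6 and -0.96 to 0.69 for Igfbp7. With protein-coding genes alone the values were -0.73 (Igfbp2), -0.61 (Igfbp3), -0.60 (Igfbp4), 0.53 (Igfbp6) and -0.32 (Igfbp7), and none was called. So the rise of Igfbp2 in EV tumors was not shown to differ from its value in P53ERTAM tumors.

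The order of levels over the 4 groups differed between members. Igfbp2 had group means of 11.7 ± 6.15, 26.7 ± 11.6, 60.3 ± 11.4 and 94.6 ± 10.6 CPM (SD, n = 3) in EV vehicle, EV combo, P53ERTAM vehicle and P53ERTAM combo. Igfbp7 kept the same order, at 20.0 ± 7.41, 33.2 ± 10.1, 70.7 ± 14.97 and 106 ± 19.1 CPM. Of the steps between neighbours in this order, the one within EV tumors passed the test for Igfbp2, and neither step within a vector passed it for Igfbp7.

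Igfbp3 had means of 90.8 ± 18.1, 127 ± 21.3, 237 ± 54.7 and 246 ± 72.8 CPM in that order, and the P53ERTAM groups lay well within each other's spread. Igfbp4 was lowest in EV combo, at 126 ± 62.1 CPM, level with EV vehicle at 129 ± 12.8 CPM, then P53ERTAM combo at 213 ± 24 and P53ERTAM vehicle at 294 ± 29.2 CPM. Igfbp5 ran from 73.2 ± 13.9 CPM in P53ERTAM combo through 98.9 ± 27.0 in P53ERTAM vehicle and 221 ± 61.5 in EV vehicle to 431 ± 132 CPM in EV combo. Igfbp6 ran from 0.572 ± 0.268 CPM in EV combo to 1.45 ± 0.181 CPM in P53ERTAM combo.

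The genes whose profile over the 12 libraries was most like that of each member were found among 12793 protein-coding genes. Likeness was the root mean square (RMS) difference between centred log2(CPM + 1) profiles, in log2 units. The added 1 shrinks the changes of genes at low CPM. Nearest to Igfbp7 were Vwf (RMS difference 0.198), the von Willebrand factor of endothelium, Jcad (0.219), a junctional protein, and Pdgfb (0.238), a growth factor. Vwf, also 1 of the 10 endothelial markers, had a mean of 2.23 CPM in EV vehicle libraries. Its log2 fold change for P53ERTAM against EV under vehicle was 2.40, beside 1.81 for Igfbp7. Nearest to Igfbp3 were Cd93 (0.163), a receptor on endothelial cells, Dchs1 (0.172), a cadherin, and Sparc (0.192), a matrix glycoprotein. Igfbp7 differs from the median candidate by 1.03 and Igfbp3 by 0.734 on this scale.

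Nearest to Igfbp5 were Pyroxd2 (0.368), Mlxipl (0.388), a transcription factor that responds to glucose, and Btbd11 (0.400). Nearest to Igfbp4 were Tgfa (0.205), an EGF receptor ligand, Mturn (0.221) and Ddx25 (0.228). Nearest to Igfbp2 were Abcg2 (0.402), a drug efflux transporter, Cyp2d22 (0.430), a cytochrome P450, and Car6 (0.439), a carbonic anhydrase. For Igfbp6 they were Mlph, Atp6v1c2 and Palld, at 0.147 to 0.167. Its own profile varied by 0.345, the RMS deviation from its mean. Between members, Igfbp3 and Igfbp7 were closest (0.397) and Igfbp2 and Igfbp5 farthest apart (2.06). Ddx25, Btbd11 and Car6 had group means as low as 0.471, 0.319 and 0.292 CPM, where the added 1 weighs most. Their log2 fold changes for P53ERTAM against EV under vehicle were 2.54, -2.44 and 3.36. Those of Igfbp4, Igfbp5 and Igfbp2, the members they were near, were 1.18, -1.16 and 2.37.

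**Figure D4:**
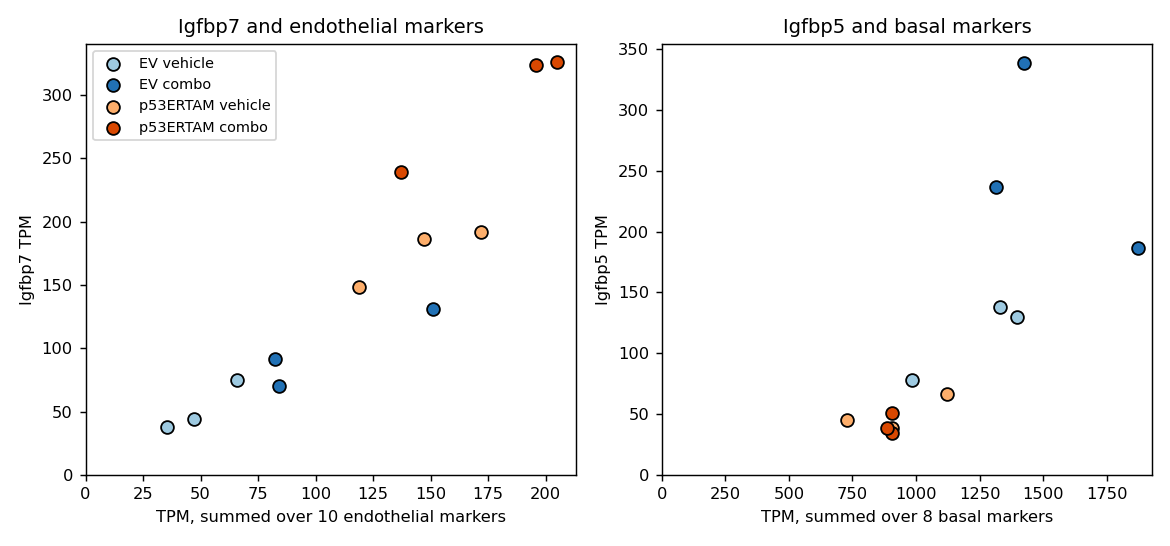
Left, TPM of Igfbp7 (y axis) against the TPM summed over 10 endothelial markers (x axis); right, TPM of Igfbp5 against the TPM summed over 8 basal markers; each point is 1 of the 12 libraries, coloured by group as in the legend. Igfbp7 per unit of endothelial marker level is 1.59 to 1.75 in P53ERTAM combo libraries and 0.930 to 1.14 in EV vehicle libraries.

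Set against the marker levels, a comparison chosen after the values were seen, Igfbp7 TPM per summed endothelial TPM was 0.930 to 1.14 in EV tumors given vehicle and 0.839 to 1.11 in those given combo. In P53ERTAM tumors it was 1.12 to 1.27 with vehicle and 1.59 to 1.75 with combo. The P53ERTAM combo libraries were the highest on this ratio and did not overlap the rest. Igfbp3 per summed endothelial TPM was 1.71 to 2.24 in EV vehicle and 1.13 to 1.72, 1.53 to 1.60 and 1.33 to 1.69 in EV combo, P53ERTAM vehicle and P53ERTAM combo. Igfbp5 per summed basal TPM was 0.0793 to 0.104 in EV tumors given vehicle and 0.0996 to 0.238 in those given combo. It was 0.0426 to 0.0613 and 0.0378 to 0.0559 in the corresponding P53ERTAM tumors, below both EV groups. Macrophage markers summed to 3226 to 4458 TPM in P53ERTAM combo and 708 to 1574 TPM in the other 3 groups. In the treatment comparison of P53ERTAM tumors 8 of these 10 markers were higher and none lower. There edgeR called 6.28% of all genes (3.30% higher) and no member. Adipocyte markers summed to at most 18.7 TPM and skeletal muscle markers to at most 4.61 TPM in any library, with Myh1 at 0 in all 4 groups.

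The TPM of Igf2, a ligand that these proteins bind, was above the summed TPM of the members in every library. Igf2 was measured at 10296, 13557 and 18854 TPM in EV tumors given vehicle and at 7297, 8291 and 9053 TPM in those given combo. In P53ERTAM tumors it was at 4615, 4669 and 6054 TPM with vehicle and at 2202, 2242 and 2636 TPM with combo. No pair of neighbouring groups overlapped in this order. Igf2 was lower in each of the 4 pairwise comparisons, with log2 fold changes of -0.97 and -1.27 for combo against vehicle in EV and P53ERTAM tumors and of -1.43 and -1.73 for P53ERTAM against EV tumors under vehicle and combo (edgeR adjusted p = 0.00203, 0.00626, 0.000200 and 3.13e-05).

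The summed TPM of the members per 100 TPM of Igf2, a ratio chosen after the values were seen, was 2.05 to 3.09 in EV tumors given vehicle and 6.95 to 9.34 in those given combo. In P53ERTAM tumors it was 10.8 to 18.9 with vehicle and 30.9 to 47.5 with combo. The 4 ranges did not overlap. Transcript levels do not give the amounts of protein.

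**Figure D5:**
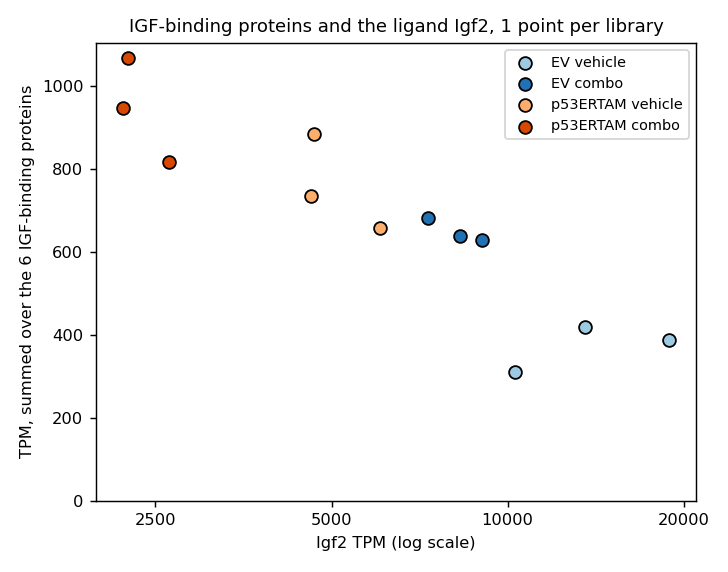
TPM summed over the 6 members (y axis, linear) against TPM of Igf2 (x axis, log scale), 1 point per library coloured by group. The EV vehicle libraries sit at the lower right (310 to 419 TPM of members) and the P53ERTAM combo libraries at the upper left (816 to 1066 TPM).

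Igf1 was a minor ligand at 0.672 to 7.60 TPM, and was higher in P53ERTAM than in EV tumors under combo (log2 1.17, edgeR adjusted p = 0.0395). Igf1r, the signalling receptor, was higher in P53ERTAM tumors under vehicle (log2 0.81, adjusted p = 0.000610) and under combo (log2 0.50, adjusted p = 0.00860). edgeR called Igf2r, which clears IGF2, the insulin receptor Insr and Igfals, the acid-labile subunit, in no comparison. Of the 8 ligand and receptor genes, 5 were tested, since Ins1, Ins2 and Insrr were too low. For combo against vehicle in P53ERTAM tumors edgeR called 1 of them, Igf2, while DESeq2 and limma-voom each called 3; there the edgeR values were -0.43 for Insr (adjusted p = 0.0571) and -0.43 for Igf1r (adjusted p = 0.0684). Of the family members outside the 6, Igfbp1 had 0 counts among 233209016, which allows up to 0.0129 CPM over all libraries for counting error only, and Igfbpl1 had 6 counts in 3 libraries.

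Proteases that cut IGF-binding proteins, and their inhibitors, were tested in 13 of 16 cases. Under vehicle 4 were higher in P53ERTAM tumors and 1 was lower (Ctsd, log2 -0.57), a share close to the 37.8% of all genes called. Under combo 8 were higher and none lower, where 44.1% of all genes were called (22.1% higher), among them Adamts1 (0.84), Mmp14 (0.49) and Ctsd (0.44). In EV tumors 2 were higher under combo, Mmp2 by 1.74 and Adam12, and Ctsd was lower at -0.63, where 39.9% of all genes were called. In P53ERTAM tumors Mmp2 (0.94) and Mmp14 (0.58) were higher, where 6.28% of all genes were called. Mmp2 and Mmp14 are matrix metalloproteinases, Adamts1 a secreted metalloprotease and Ctsd a lysosomal aspartic protease.

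Genes that share the amino-terminal domain of the family without being IGF-binding proteins, the CCN proteins among them, were tested in 8 of 9 cases. Under vehicle P53ERTAM tumors had 5 of them higher and none lower than EV tumors, where 17.9% of all genes were higher. Under combo 4 were higher and none lower, where 22.1% of all genes were higher. The matrix proteins Ccn1 and Ccn2 had log2 fold changes of 1.02 and 1.16 under vehicle and of 1.64 and 2.08 under combo, and Ccn4 of 1.41 and 1.43. For combo against vehicle edgeR called 1 in EV tumors, Crim1 (-0.45), and 0 in P53ERTAM tumors, where 3 had an unadjusted p under 0.05, DESeq2 called 1 and limma-voom 4.

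Genes that carry the signal inside the cell were tested in 32 of 33 cases. In EV tumors 3 were higher and 16 lower under combo, where 39.9% of all genes were called (18.8% higher and 21.1% lower). Akt1 (-0.55) and the adaptor Grb2 (-0.47) were lower and Tsc1, an inhibitor of mTOR, was higher (0.61). The list's median log2 fold change was -0.25, against -0.13 over all protein-coding genes. In P53ERTAM tumors 1 was called, Grb2, higher by 0.39, where 6.28% of all genes were called. For P53ERTAM against EV tumors 6 were higher and 10 lower under vehicle (37.8% of all genes called), and 12 were higher and 5 lower under combo (44.1%). The list's medians there were -0.14 under vehicle and 0.18 under combo, against -0.072 and 0.13 over all protein-coding genes. These counts share the EV combo or EV vehicle libraries with the counts given for the members.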

How the data were processed

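The authors deposited whole-number read counts per gene for 12 libraries made with a stranded total RNA kit. The submitters' processing notes name GRCm38.p5, featureCounts, STAR, fastp and FastQC, without settings. Low counts of 1 to 20 were even in 66.3% to 71.7% of cases and those over 200 in 49.2% to 52.1%, so both mates of a pair may have been counted. Symbols came from GENCODE M21 for 52403 of 52636 identifiers. Counts were filtered with filterByExpr, normalised by TMM (factors 0.941 to 1.05) and tested with edgeR 4.0.16 (R 4.3.3; robust quasi-likelihood, 8 residual degrees of freedom, 4 group means, 5 contrasts), with limma 3.58.1 and DESeq2 1.42.0 as alternatives. CPM used TMM-scaled totals and TPM the summed exon length. The script was tested on simulated data. The members were named in all comparisons, with the 3 genes most like each; of the other lists all ligands, receptors and relatives, or up to 4 of the genes called most often, were named; some genes that the rule names are not reported here. The members and lists were chosen with earlier results of these data known. Older CCN symbols were matched through RefSeq synonyms. Replicates of a group differed by more than sampling noise. Replicate numbers did not pair libraries.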

Additional observations from a re-analysis of the deposited data

Results flagged for a closer look

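The response of Igfbp5 to the combination differed between the vectors by -1.39 on the log2 scale (edgeR quasi-likelihood interaction, adjusted p = 0.0142), because it was higher under combo in EV tumors (log2 0.96) and had a log2 fold change of -0.43 in P53ERTAM tumors. The value rests on the 3 EV combo libraries, which stand apart in Gm26917, and no other member's interaction was called.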

How the results depend on the processing

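Of the members' values under other settings, 556 kept their direction and side of the threshold, 19 were no longer called, 16 became calls and 15 changed sign. None of the sign changes concerned a called value, and the cause of the changes was not tested. For Igfbp4, combo against vehicle in EV tumors was -0.04, and 0.0095 with DESeq2-style size factors, 0.0048 with DESeq2, 0.085 with protein-coding genes, 0.026 with the 2 groups alone and -0.52 to 0.18 without 1 library. The interaction of Igfbp7 was 0.21 with limma-voom. Without 1 library, Igfbp6 in EV tumors ran from -0.89 to 0.076, Igfbp3 in P53ERTAM tumors from -0.13 to 0.28, the interaction of Igfbp4 from -0.65 to 0.061 and that of Igfbp7 from -0.50 to 0.13. Against a fold of 1.5, 1870, 19, 2078, 2897 and 2593 genes were called in place of 7169, 1129, 6784, 7918 and 6473, in the order combo in EV, combo in P53ERTAM, vector under vehicle, vector under combo and interaction, and members called were 0 in place of 2 in EV tumors, 3 in place of 5 under combo and 0 in place of 1 in the interaction. With no filter, 0 members were called in EV tumors and 0 in the interaction. Protein-coding genes alone gave 4083 interaction calls. For combo in P53ERTAM tumors, DESeq2 called 2245 genes, limma-voom 3748 with 2 members, the 2 groups alone 1890 with 2 members, the fit without EV combo libraries 627, and refits without 1 library 77 to 2130. Without 1 library, members called in EV tumors ranged from 1 to 3. With a replicate block, genes called were 6789, 970, 6341, 7639 and 6001 in the same order and the members called did not change in number (2, 0, 5, 5 and 1); same-numbered libraries had residual correlations of -0.173 to 0.31, 2 of 18 above 0.1, and 3 of 12 libraries correlated best with their own number, a hint from the data, not the design. Igfbp6, at 6 to 40 counts per library, has the largest counting error of the members.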
